A study of Rattus norvegicus with 9 samples.

Results

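Chemokines are small secreted proteins that guide leukocytes, and the genes for them and for their receptors were followed here in the right ventricle of the rat. A gene was taken when its feature on the array carried 1 symbol and that symbol belonged to a CC, CXC, CX3C or XC chemokine, to a receptor of these classes or to an atypical chemokine receptor. This gave 52 genes of the 14506 genes with such a feature, out of 29215 features in all, and each of the 52 had 1 feature. They comprised 33 ligands (19 CC, 12 CXC and 2 of the CX3C and XC classes) and 19 receptors (9 CC, 6 CXC, 2 of the CX3C and XC classes and 2 atypical ones). The platelet chemokines Pf4 and Ppbp, whose symbols follow another pattern, are described with the related genes.

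The right ventricles came from male rats of the SD (Sprague-Dawley) strain, frozen and measured on the Affymetrix Rat Gene 1.0 ST array, with 3 arrays in each of 3 groups. The F+ group were rats with pulmonary artery banding (PAB), an operation that narrows the outflow of the right ventricle, whose fibrotic area lay above a cut-off. The F- group were banded rats whose fibrotic area lay below it, and the sham-operated group had the operation without the band. The methods divide the banded rats 4 weeks after the operation, and no age is stated for the rats of the arrays. Comparing F+ with F- sets overloaded hearts with a fibrotic area above the cut-off against overloaded hearts below it. Comparing F- with sham-operated hearts shows overload where the fibrotic area stayed below the cut-off, which does not mean that fibrosis was absent. The F+ and F- groups were divided by an outcome of the same operation, so what preceded fibrosis and what accompanied it cannot be told apart. The sources leave unsaid whether a group's 3 arrays are 3 animals, and the methods speak of hybridizations in triplicate. A p-value here therefore sets a difference against array-to-array spread alone, and part or all of that spread may be technical.

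Chemokines act on membrane receptors that couple to inhibitory G proteins, and most ligands bind several receptors. Inflammatory ligands such as Ccl2 are induced in injured tissue and draw monocytes, neutrophils or T cells into it. Homeostatic ligands such as Cxcl12, Ccl19 and Ccl21 are made constantly and direct the traffic of lymphocytes, dendritic cells and progenitor cells. Atypical receptors bind chemokines without the usual signal and remove or redistribute them. In the heart, resident macrophages, endothelial cells and fibroblasts are known sources of these proteins.

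The deposited values are signal intensities per feature that ranged over the whole table between 1 and 190.4, with array medians of 33.4 to 33.9. Neither their scale nor the normalization is given in the sources used here, so every fold change was taken from group means of the log2 of these values and holds for that scale only. Had the authors deposited squared log2 intensities, the folds would be larger, and for the 10 genes that lead the comparison of F+ with F- they would be 1.23 to 1.80 in place of 1.10 to 1.27. Ventricular markers were high on all 9 arrays, with 139.8 to 153.9 for Myl2, a ventricular myosin light chain. Sham array 2 stood apart, with a summed value of 570.5 over 5 atrial genes against 281.6 to 378.2 on the other 8 arrays. F- array 1 stood apart as well, and its summed value of 15 macrophage genes was 910.7, against 757.2 and 747 on the other F- arrays. Sham array 1 held the highest value of all 9 arrays for 17 of the 52 genes, and F+ array 2 for 12. In ventricular tissue, fewer cells of a type and less RNA per cell cannot be told apart.

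No chemokine or receptor gene passed limma's adjusted threshold of 0.05 in any comparison, and over all features 1 passed between F+ and F- (0.00342%), 0 between F- and sham-operated and 0 between F+ and sham-operated. By unadjusted values, the genes leaned upward in the F+ group. Between F+ and F-, 10 of 52 genes (19.2%) had an unadjusted p under 0.05 and a higher value in F+, where 3.65% of all features did (4.54% of all genes with 1 feature each). These were the ligands Ccl19, Ccl21, Ccl24, Ccl26, Cxcl12, Cxcl16 and Cx3cl1 and the receptors Ccr1, Cx3cr1 and Ackr2. On the lower side stood only Xcr1, 1.92% of the genes, beside 3.76% of all features (3.93% of genes). For 9 of the 52 genes (17.3%) all F+ arrays lay above all F- arrays, against 4.46% of all features (5.5% of genes). For 0 all lay below, against 5.28% of all features (6.24% of genes). With 3 arrays against 3, an exact two-sided permutation test of 1 gene cannot go below p = 0.1.

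**Figure D1:**
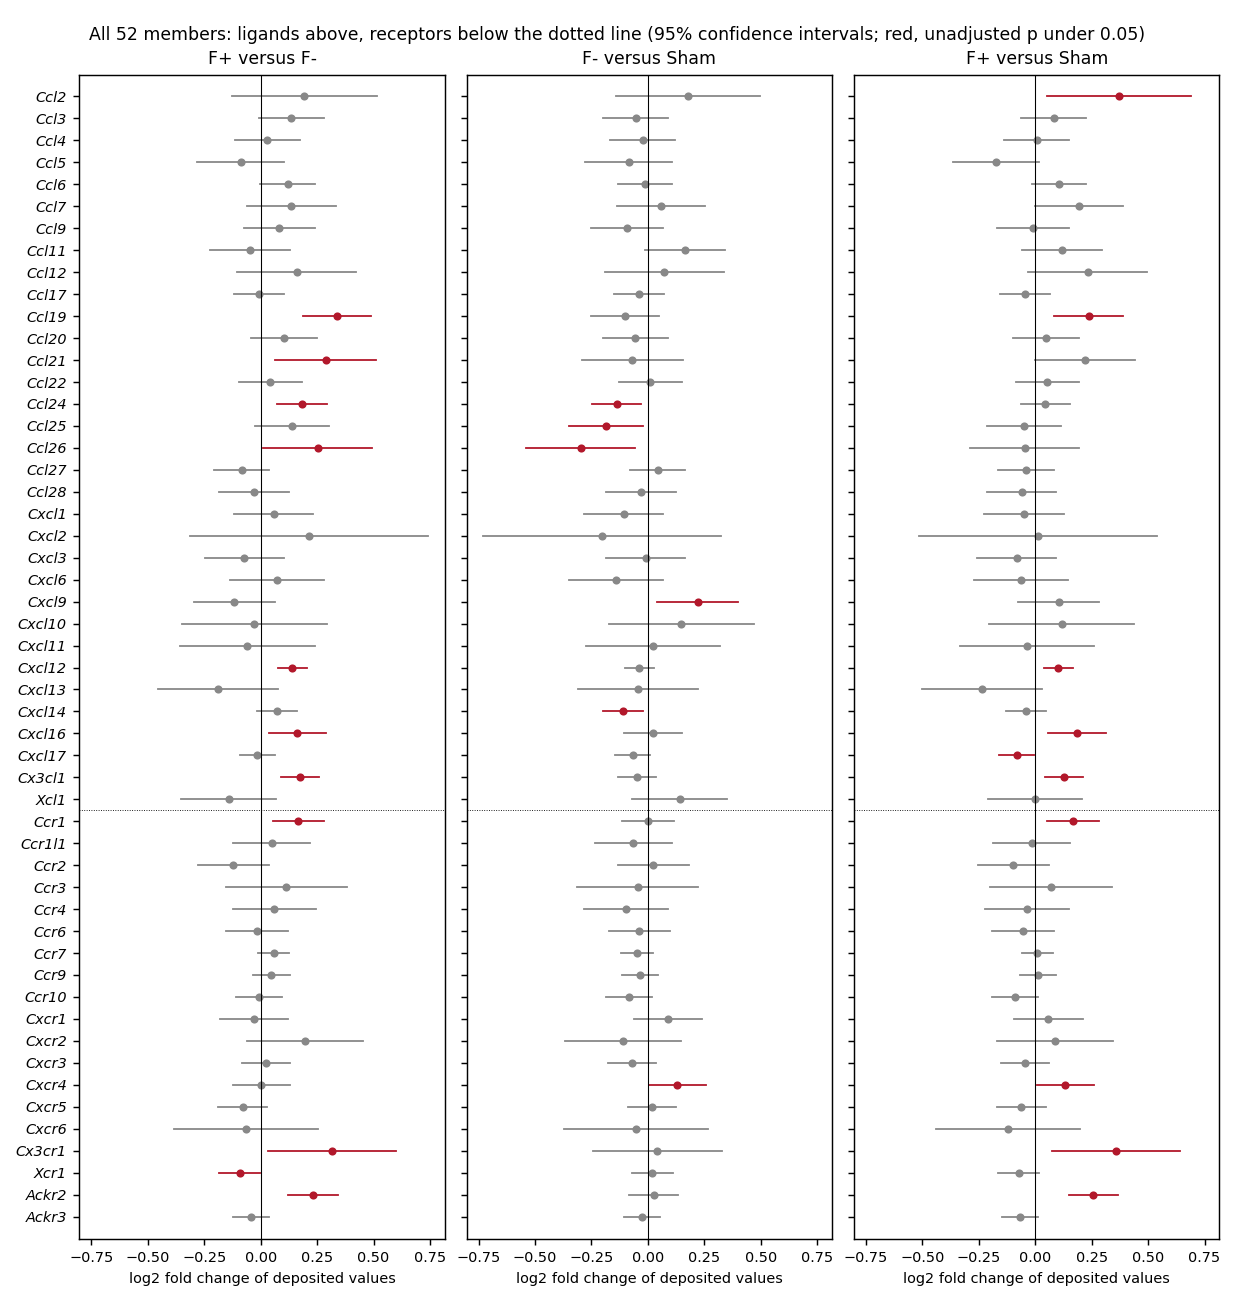
Log2 fold change of the deposited values (horizontal axis) of all 52 genes (rows) for each pair of groups (1 panel each: F+ versus F-, F- versus Sham, F+ versus Sham), with 95% confidence intervals and with an unadjusted p under 0.05 in red. Of the 52 genes, 32 lie above 0 between F+ and F-, 18 between F- and sham-operated and 27 between F+ and sham-operated.

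By class, the CC ligands had the largest share of log2 fold changes above 0 between F+ and F-, with 14 of 19 and a median of 0.12. Of the 10 genes higher in F+ with an unadjusted p under 0.05, only 4 were CC ligands (21.1% of the class). The CXC ligands held 2 (16.7%), the receptors 3 (15.8%) and the other was Cx3cl1, beside 3.65% of all features. The CC receptors had 6 of 9 above 0 and a median of 0.048. The CXC ligands had 6 of 12 above 0 and a median of 0.021. Receptors had 11 of 19 above 0, with a median of 0.025, and all 33 ligands together had 21 above 0 and a median of 0.074. Over all features, 48.2% lay above 0 (50.2% of genes) and the median was -0.0023. With 1 array left out, the median of the ligands ran between 0.042 (without F- array 3) and 0.096 and that of the receptors between 0.00074 (without F+ array 1) and 0.052, and without the dimmest 33.3% of features the median of the receptors was -0.0018. Whether the classes differed from each other was not tested.

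Ccl19 and Ccl21 share the receptor Ccr7, through which they lead dendritic cells and naive T cells to lymph vessels and lymph nodes. Ccl19 had 39.3, 46.2 and 45.0 on F+ arrays 1, 2 and 3, the order in which the values of each group are given, against 34.5, 32.5 and 36.0 in F-. On the sham arrays it had 36.1, 37.9 and 36.5, so every F+ array lay above all 6 others. Its log2 fold change was 0.34 between F+ and F- (standard error 0.065, unadjusted p = 0.000925, adjusted p = 0.481 from limma) and 0.24 between F+ and sham-operated hearts (unadjusted p = 0.00714). Ccl21 had 79.8, 87.9 and 68.4 in F+, against 68.3, 57.9 and 66.5 in F- and 66.5, 69.5 and 65.6 in sham-operated hearts. The F+ and F- arrays of Ccl21 were parted by only 0.1, between F+ array 3 and F- array 1, and F+ array 3 lay below sham array 2. Its log2 fold change was 0.29 between F+ and F- (standard error 0.096, unadjusted p = 0.0177) and 0.22 between F+ and sham-operated hearts (unadjusted p = 0.0522). The receptor Ccr7 had 37.3 to 38.6 in F+, 35.2 to 37.5 in F- and 37.5 to 38.1 in sham-operated hearts, with overlapping groups. Lymphatic endothelial cells make Ccl21, and their marker sum over 4 genes was 245.3 to 256.5 in F+, 224.5 to 237.1 in F- and 227.6 to 239.7 in sham-operated hearts. Within that list, measured for 4 of 5 genes, 3 were higher in F+ than in F-, 2 of them with an unadjusted p under 0.05. Over all features, 48.2% were higher and 3.65% were so with an unadjusted p under 0.05. Flt4, the receptor for lymphatic growth factors, had 47.1, 43.8 and 43.0 in F+, against 42.2, 36.3 and 36.8 in F- (log2 fold change 0.22, unadjusted p = 0.0103), and Pdpn, or podoplanin, had 57.3 to 58.9 in F+, against 53.1 to 56.6 in F-. Lyve1, a hyaluronan receptor that some macrophages also carry, had 81.2 to 87.3 in F+ and 62.5 to 74.7 in F-, while Prox1, the defining transcription factor, had 59.6 to 66.5 in F+ and 63.6 to 69.3 in F-. Their part in the values of Ccl19 and Ccl21 was not tested.

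The windows of 250 bases before the start of 3 ligand genes are printed. Ccl19 and Ccl24 were higher in F+ than in F- with an unadjusted p under 0.05, and Cxcl10 was not. Of these, Ccl24 overlapped between F+ and sham-operated hearts. They run 5′ to 3′ on the strand of the gene, from RefSeq on the build GRCr8, and capitals mark matches to motifs of 4 kinds searched on both strands: NF-kappa-B (GGGA and TTCC with any 2 bases between them), the interferon-stimulated response element or ISRE (GAAA and again GAAA with any 2 bases between them), the interferon-gamma activated site or GAS (TTCNNNGAA) and the TATA box (TATAAA). The Ccl19 window is chr5:61761165-61761414 on the minus strand, that of Ccl24 is chr12:26737173-26737422 on the plus strand and that of Cxcl10 is chr14:15988816-15989065 on the plus strand.
Ccl19: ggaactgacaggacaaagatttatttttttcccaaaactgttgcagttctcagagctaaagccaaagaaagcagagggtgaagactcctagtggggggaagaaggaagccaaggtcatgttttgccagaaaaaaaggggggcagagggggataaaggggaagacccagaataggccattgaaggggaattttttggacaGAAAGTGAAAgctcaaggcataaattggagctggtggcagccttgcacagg
Ccl24: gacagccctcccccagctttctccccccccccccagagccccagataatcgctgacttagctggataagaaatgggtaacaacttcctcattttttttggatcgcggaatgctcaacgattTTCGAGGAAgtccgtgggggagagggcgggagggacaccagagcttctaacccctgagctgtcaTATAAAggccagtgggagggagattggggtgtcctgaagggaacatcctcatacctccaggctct
Cxcl10: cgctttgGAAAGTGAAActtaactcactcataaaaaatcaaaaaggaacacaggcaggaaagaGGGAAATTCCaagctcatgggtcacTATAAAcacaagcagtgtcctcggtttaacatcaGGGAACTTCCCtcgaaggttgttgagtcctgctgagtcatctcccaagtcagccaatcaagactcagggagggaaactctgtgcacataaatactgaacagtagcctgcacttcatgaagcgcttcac
Ccl19 had a match to the ISRE at 51 to 42 bases before the start and none to the other 3 motifs. Ccl24 had a match to the GAS at 129 to 121 bases and a TATA box at 65 to 60 bases. Cxcl10 had an ISRE match at 243 to 234 bases, NF-kappa-B matches at 187 to 178 and 128 to 119 bases, the second overlapping another on the minus strand by all but 1 base, and a TATA box at 162 to 157 bases. RefSeq promoters could be matched for 41 of the 52 genes. Among them were all 10 that were higher in F+ than in F- with an unadjusted p under 0.05. The NF-kappa-B motif stood before 6 of the 41 (14.6%: Ccl7, Cxcl1, Cxcl6, Cxcl10, Cxcl11 and Ccr3) and before 0 of the 10, and 1.08% of 33469 promoters held it. The ISRE stood before 2 of the 41 (Ccl19 and Cxcl10; 3.41% of all promoters), and the GAS before 4 (Ccl17, Ccl24, Cxcl11 and Ccr6; 7.67% of all). The TATA box stood before 12 of the 41 (29.3%) and before Ccl24 and Cx3cl1 of the 10, with 12.9% of all promoters. A match describes the letters only and shows no bound factor.

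Ccl24 and Ccl26 encode eotaxins, which in humans bind the receptor Ccr3 on eosinophils. Ccl24 had 48.0, 51.6 and 51.4 in F+, 45.2, 42.5 and 45.3 in F- and 51.4, 47.9 and 47.1 in sham-operated hearts. Ccl26 had 25.2, 24.8 and 24.1 in F+, 22.2, 22.4 and 17.9 in F- and 29.0, 23.9 and 23.9 in sham-operated hearts. For both, the F- arrays were the low ones, below every F+ array and below every sham array, while F+ and sham arrays overlapped. The log2 fold change between F+ and F- was 0.18 for Ccl24 (standard error 0.047, unadjusted p = 0.00499, adjusted p = 0.585 from limma) and 0.25 for Ccl26 (standard error 0.10, unadjusted p = 0.0421, adjusted p = 0.671). Between F- and sham-operated hearts it was -0.14 for Ccl24 (unadjusted p = 0.0198) and -0.30 for Ccl26 (unadjusted p = 0.0215), both with adjusted p = 0.743. Without F- array 3, which had the value of 17.9, the log2 fold change of Ccl26 was 0.15 between F+ and F- (unadjusted p = 0.13) and -0.19 between F- and sham-operated hearts (unadjusted p = 0.0597). These comparisons share the F- arrays and are not independent of each other. Ccl11, another eotaxin, did not follow them, with 24.7 to 29.2 in F+, 25.6 to 29.0 in F- and 23.5 to 25.6 in sham-operated hearts. The receptor Ccr3 had 8.6 to 9.6 in F+, 7.5 to 9.8 in F- and 8.0 to 10.1 in sham-operated hearts. Ccr3 and Ccl26 lie among the dimmest 33.3% of features, where the median SD of log2 values within a group was 0.11, against 0.042 among the brightest 33.3%.

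Cxcl12, also called stromal cell-derived factor, holds progenitor cells and lymphocytes in tissues through Cxcr4 and is scavenged by the atypical receptor Ackr3. It had 99.7, 94.8 and 94.7 in F+, 87.5, 86.9 and 88.0 in F- and 90.1, 90.7 and 88.6 in sham-operated hearts. Its arrays were close within each group, and every F+ array lay above the 6 others. The log2 fold change was 0.14 between F+ and F- (standard error 0.028, unadjusted p = 0.00109, adjusted p = 0.481 from limma) and 0.10 between F+ and sham-operated hearts (unadjusted p = 0.00659). Cxcr4 had 45.1, 48.1 and 45.5 in F+ and 47.9, 45.7 and 44.8 in F-, against 45.6, 40.4 and 40.6 in sham-operated hearts. Both banded groups were higher than the sham-operated group by the same log2 fold change of 0.13 (unadjusted p = 0.0401 for F+ and 0.0438 for F-), and sham array 1 lay among the banded arrays. Each difference held an unadjusted p under 0.05 under 9 of 15 alternative settings. Without F- array 1 and sham array 2 together, a setting chosen after seeing the data, the unadjusted p was 0.132 for F+ and 0.304 for F-. Between F+ and F- the difference of Cxcr4 was 0.0031, with a 95% confidence interval from -0.12 to 0.13. Ackr3 ran the other way from Cxcl12, with 113.3, 115.8 and 115.1 in F+, 113.9, 118.6 and 121.9 in F- and 124.6, 117.7 and 118.4 in sham-operated hearts. All its F+ arrays lay below all sham arrays, at a log2 fold change of -0.067 (unadjusted p = 0.0905).

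Cx3cl1, or fractalkine, is a membrane-bound ligand of endothelial cells that catches monocytes through Cx3cr1 and that proteases can release. Cx3cl1 had 68.1, 64.7 and 64.7 in F+, 60.4, 58.3 and 56.2 in F- and 60.9, 58.8 and 61.0 in sham-operated hearts. All F+ arrays lay above the 6 others, with a log2 fold change of 0.18 between F+ and F- (standard error 0.036, unadjusted p = 0.00144, adjusted p = 0.481 from limma) and 0.13 between F+ and sham-operated hearts (unadjusted p = 0.00829). Cx3cr1, a receptor of monocytes and tissue macrophages, had 59.5, 55.7 and 55.5 in F+, 56.3, 41.0 and 41.3 in F- and 41.8, 43.0 and 48.6 in sham-operated hearts. F- array 1 lay among the F+ arrays, while the other 2 F- arrays lay below all sham arrays. The log2 fold change of Cx3cr1 was 0.32 between F+ and F- (standard error 0.12, unadjusted p = 0.0334, adjusted p = 0.670) and 0.36 between F+ and sham-operated hearts (unadjusted p = 0.0198, adjusted p = 0.633).

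Cxcl16 is another membrane-bound chemokine, a scavenger receptor of macrophages whose soluble form draws T and NKT cells through Cxcr6. It had 86.0, 89.4 and 88.6 in F+, 86.3, 76.5 and 73.6 in F- and 77.9, 77.2 and 77.2 in sham-operated hearts. As for Cx3cr1, F- array 1 lay among the F+ arrays and the other 2 F- arrays below the sham arrays. The log2 fold change was 0.16 between F+ and F- (standard error 0.055, unadjusted p = 0.0189, adjusted p = 0.637 from limma) and 0.18 between F+ and sham-operated hearts (unadjusted p = 0.0105). The receptor Cxcr6 had 33.8 to 38.6 in F+, 30.7, 43.4 and 43.0 in F- and 37.7 to 44.1 in sham-operated hearts, and F- array 1 was its lowest.

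**Figure D2:**
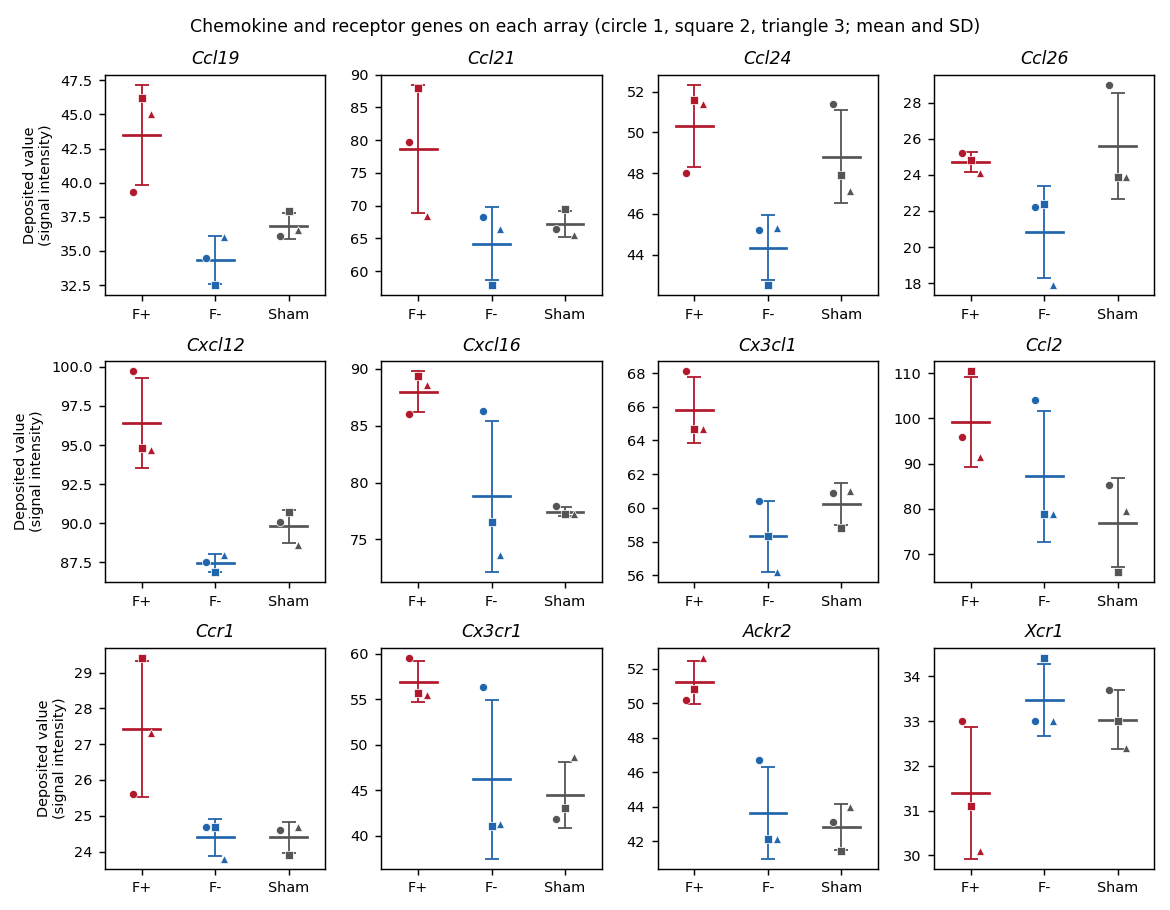
Deposited values (vertical axis) of single chemokine and receptor genes on each array of the F+, F- and sham-operated groups (horizontal axis), where array 1 is a circle, array 2 a square and array 3 a triangle, and with the mean and SD of each group. The F+ arrays of Cxcl12 lie between 94.7 and 99.7, above all other arrays, whereas F- array 1 of Cx3cr1 lies at 56.3 among its F+ arrays.

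Ackr2 and Ccr1 share a set of ligands, the inflammatory CC chemokines. Ackr2, known as D6, takes these ligands up and degrades them, and in the mouse it is a marker of lymphatic endothelium. It had 50.2, 50.8 and 52.6 in F+, 46.7, 42.1 and 42.1 in F- and 43.1, 41.4 and 44.0 in sham-operated hearts. Every F+ array lay above the 6 others, and F- array 1 was the highest of those. It differed by a log2 fold change of 0.23 between F+ and F- (standard error 0.047, unadjusted p = 0.00129, adjusted p = 0.481 from limma) and 0.26 between F+ and sham-operated hearts (unadjusted p = 0.000678, adjusted p = 0.564), and between F- and sham-operated hearts it was 0.025. Ccr1, a receptor of monocytes and neutrophils, had 25.6, 29.4 and 27.3 in F+, 24.7, 24.7 and 23.8 in F- and 24.6, 23.9 and 24.7 in sham-operated hearts. Its F+ arrays also lay above all others, at a log2 fold change of 0.17 against either group (standard error 0.049, unadjusted p = 0.00963 against F- and 0.00965 against sham-operated hearts).

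Of the ligands of Ccr1, Ccl6, a CC chemokine of macrophages in rodents, came nearest. It had 52.5, 56.4 and 51.8 in F+, 49.9, 47.7 and 50.3 in F- and 53.2, 48.2 and 47.9 in sham-operated hearts, a log2 fold change of 0.12 between F+ and F- (unadjusted p = 0.0513). Ccl3, or macrophage inflammatory protein 1-alpha, had 33.7 to 37.5 in F+, 29.9 to 33.7 in F- and 32.4 to 35.4 in sham-operated hearts, with unadjusted p = 0.0612 between F+ and F-. Ccl5, or RANTES, which T cells and platelets release, leaned downward instead. Its values were 64.2, 57.0 and 63.3 in F+, 63.9, 68.5 and 63.7 in F- and 78.6, 64.2 and 65.9 in sham-operated hearts, at a log2 fold change of -0.17 between F+ and sham-operated hearts (unadjusted p = 0.0700). Ccl9 and Ccl4 had log2 fold changes of 0.083 and 0.030 between F+ and F-. Ccr1l1, a receptor-like relative of Ccr1 whose coordinates lie within those of Ccr3, had 27.9 to 29.2 in F+, 26.9 to 27.9 in F- and 26.3 to 32.6 in sham-operated hearts. Signals of such similar and overlapping genes may be shared, and their values are uncertain to that extent.

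Ccl2, the main chemokine that draws monocytes, together with Ccl7 and Ccl12 binds Ccr2. Ccl2 had 95.9, 110.4 and 91.5 in F+, 104.0, 79.0 and 78.8 in F- and 85.2, 66.1 and 79.5 in sham-operated hearts. All F+ arrays lay above all sham arrays, and F- array 1 lay among the F+ arrays. The log2 fold change was 0.37 between F+ and sham-operated hearts (standard error 0.14, unadjusted p = 0.0285, adjusted p = 0.642 from limma), 0.19 between F+ and F- (95% confidence interval -0.13 to 0.51) and 0.18 between F- and sham-operated hearts (95% confidence interval -0.14 to 0.50). Ccl7 had 35.6, 44.4 and 36.0 in F+, 36.9, 35.1 and 33.1 in F- and 34.1, 33.0 and 33.7 in sham-operated hearts, with unadjusted p = 0.0503 between F+ and sham-operated hearts. Ccl12 had 26.7, 28.2 and 23.5 in F+, 26.3, 24.5 and 19.7 in F- and 23.1, 22.8 and 20.7 in sham-operated hearts. F+ array 2 was the highest of the 9 for Ccl2, Ccl7 and Ccl12. The receptor Ccr2, which marks recruited monocytes, leaned the other way, with 78.7, 65.9 and 71.8 in F+, 74.4, 79.7 and 80.7 in F- and 79.9, 73.5 and 77.5 in sham-operated hearts. Its groups overlapped, F+ array 2 was its lowest, and its log2 fold change between F+ and F- was -0.12 (95% confidence interval -0.28 to 0.036).

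Macrophage markers moved with several of these genes. All 15 genes of that list had a higher mean in F+ than in F-, 6 of them with an unadjusted p under 0.05 and 0 with an adjusted one, with a median log2 fold change of 0.21, where 48.2% of all features were higher and 3.65% were so with an unadjusted p under 0.05. Their summed value was 908.2, 946.1 and 908.3 in F+, 910.7, 757.2 and 747 in F- and 799.3, 748.6 and 791.6 in sham-operated hearts, so that F- array 1 lay among the F+ arrays, as it did for Cx3cr1. Csf1r, the receptor for macrophage growth factor, had 76.7 to 81.3 in F+ and 76.3, 65.1 and 64.3 in F-. Cd163, a hemoglobin scavenger receptor of resident macrophages, had a log2 fold change of 0.38 between F+ and F- (unadjusted p = 0.00536), and C1qb, a complement component that they make, one of 0.28 (unadjusted p = 0.00408). F- array 1 was the highest F- array for Cx3cr1, Cxcl16, Ackr2, Cx3cl1 and Ccl21, while for Ccl19 and Cxcl12 it lay between the other 2. Without F- array 1, 13 chemokine and receptor genes were higher in F+ than in F- with an unadjusted p under 0.05, against 10 with it. Without F- array 1 and sham array 2 together, a setting chosen after seeing the data, this count was 12. By the same rule, 8 were then higher in F+ than in sham-operated hearts, against 9 with all arrays. Shares over all features are not given for these settings. The part of macrophage content in these values was not tested.

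**Figure D3:**
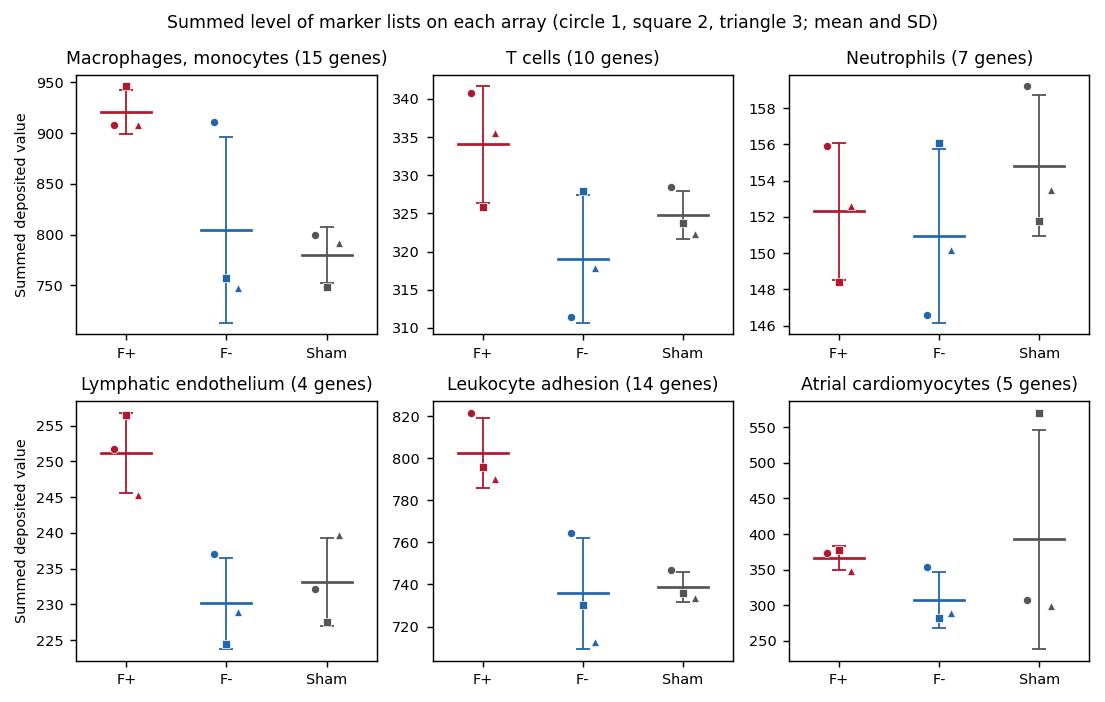
Summed deposited values (vertical axis) of marker gene lists on each array of the F+, F- and sham-operated groups (horizontal axis), where array 1 is a circle, array 2 a square and array 3 a triangle, and with the mean and SD. The macrophage sum is 910.7 on F- array 1 and 747 to 757.2 on the other F- arrays, and the atrial sum is 570.5 on sham array 2.

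Of the other leukocyte markers, neutrophil markers had 3 of 7 genes higher in F+ than in F-, and their sums of 148.4 to 155.9 in F+, 146.6 to 156.1 in F- and 151.8 to 159.2 in sham-operated hearts overlapped. For this list and those that follow, the shares over all features were again 48.2% higher and 3.65% higher with an unadjusted p under 0.05. NK cell markers had 1 of 6 higher and a median of -0.082. T cell markers had 7 of 10 higher, 2 with an unadjusted p under 0.05, Cd3d and Cd4. Cd3d, a subunit of the T cell receptor complex, had 20.8 to 22.2 in F+, 18.4 to 20.6 in F- and 20.5 to 20.8 in sham-operated hearts. Cd4 had 83.6, 83.3 and 81.4 in F+, 80.5, 70.8 and 72.8 in F- and 74.3, 71.0 and 77.2 in sham-operated hearts. As for the macrophage sum, F- array 1 was its highest F- array. Mast cell markers had 6 of 7 higher, 3 with an unadjusted p under 0.05, and a median of 0.21, and their sum was 170 to 197.6 in F+, 154.1 to 161.4 in F- and 156.4 to 167.6 in sham-operated hearts. Red cell markers were measured for 4 of 7 genes, of which 4 were higher in F+ than in F-, 3 with an unadjusted p under 0.05, at a median of 0.48. Their sum was 188.7, 123.5 and 139.2 in F+, 97.4 to 102 in F- and 105.4 to 115.6 in sham-operated hearts, with every F+ array above the 6 others, as for several of the chemokine genes. Hbb, a beta-globin, had 107.8, 64.2 and 76.8 in F+, 45.7, 39.6 and 46.4 in F- and 47.8, 52.3 and 52.6 in sham-operated hearts (log2 fold change 0.89 between F+ and F-, unadjusted p = 0.000901). The part of blood content in the chemokine values was not tested. B cell markers were measured for 3 of 6 genes only. Dendritic cell markers had 6 of 6 measured genes higher in F+ than in F-, 0 with an unadjusted p under 0.05, and a median of 0.055. Endothelial markers had 5 of 6 higher, 1 with an unadjusted p under 0.05, and a median of 0.031. Fibroblast markers had 4 of 7 higher, 0 with an unadjusted p under 0.05, and a median of 0.011. None of these lists held a gene with an adjusted p under 0.05.

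Interferon-inducible Cxcl9, Cxcl10 and Cxcl11, which draw activated T cells through Cxcr3, did not lean toward F+. Cxcl9 had 57.6, 59.2 and 64.9 in F+, 67.1, 66.1 and 63.6 in F- and 59.5, 49.9 and 60.1 in sham-operated hearts. Here the F- arrays were the high ones, all above the sham arrays, at a log2 fold change of 0.22 between F- and sham-operated hearts (standard error 0.077, unadjusted p = 0.0223, adjusted p = 0.743 from limma). Without sham array 2, the low one and the one with the atrial signal, it was 0.13 (unadjusted p = 0.0467), and without that array and F- array 1 together it was 0.12 (unadjusted p = 0.112). Cxcl10 had 54.1, 48.2 and 50.9 in F+, 56.2, 55.1 and 45.5 in F- and 58.3, 43.2 and 41.2 in sham-operated hearts, a wide spread in which sham array 1 was the highest. Cxcl11 had 71.1 to 73.1 in F+, 64.3 to 86.6 in F- and 63.1 to 84.7 in sham-operated hearts. Cxcr3 had 33.2 to 35.9 in F+, 33.0 to 35.4 in F- and 34.7 to 37.6 in sham-operated hearts. Between F+ and F- the log2 fold changes of Cxcl9, Cxcl10, Cxcl11 and Cxcr3 were -0.12, -0.029, -0.059 and 0.025, all with overlapping groups.

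The neutrophil-attracting ligands Cxcl1, Cxcl2, Cxcl3 and Cxcl6 and their receptors Cxcr1 and Cxcr2 had no unadjusted p under 0.05 in any comparison of the main fit over all arrays. Without F- array 1, or with the replicate number as a block over all arrays, Cxcr2 was higher in F+ than in F- with an unadjusted p under 0.05. Cxcl2 had the widest spread of them, with 17.3, 28.9 and 23.6 in F+, 18.6, 19.5 and 20.8 in F- and 30.5, 18.1 and 20.8 in sham-operated hearts. Its 95% confidence interval between F+ and F- ran from -0.31 to 0.74, so these arrays do not exclude changes within that range. Sham array 1 held the highest value of all 9 arrays for Cxcl1 (43.1), Cxcl2 (30.5), Cxcl3 (17.5), Cxcl6 (23.7) and Cxcr2 (19.4). Cxcl6 had 19.5 on all F+ arrays, and Cxcl3 had 15.5 on 5 arrays. Of the 52 genes, 6 had a value shared by at least 4 arrays (Ccl9, Ccl27, Cxcl3, Cxcl6, Ccr9 and Xcr1), ties that narrow the spread within a group, and 11 genes lay among the dimmest 33.3% of features.

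**Figure D4:**
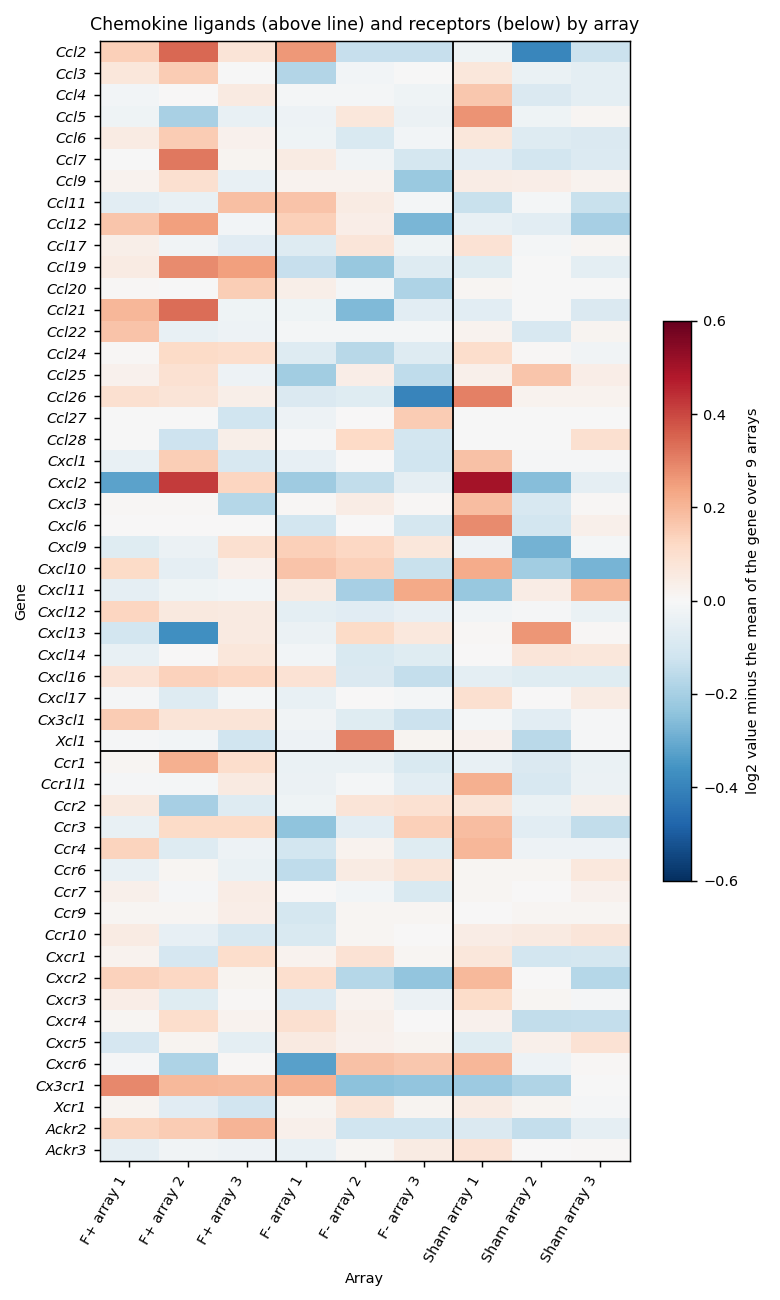
Log2 deposited values of all 52 genes (rows, ligands above the line and receptors below) on the 9 arrays (columns, in the order F+, F-, sham-operated), each gene relative to its own mean over the 9 arrays. Sham array 1 holds the highest value of 17 genes and F+ array 2 that of 12.

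The remaining genes showed small or overlapping differences. Xcr1, the receptor by which cross-presenting dendritic cells sense Xcl1, had 33.0, 31.1 and 30.1 in F+, 33.0, 34.4 and 33.0 in F- and 33.7, 33.0 and 32.4 in sham-operated hearts. Its log2 fold change between F+ and F- was -0.093 (unadjusted p = 0.0454, adjusted p = 0.671 from limma), and 33.0 was shared by 4 of its arrays. Xcl1, made by NK and T cells, had 42.8 to 46.3 in F+, 45.5, 57.1 and 47.0 in F- and 41.6 to 47.3 in sham-operated hearts. Cxcl13, which draws B cells through Cxcr5, had 47.7, 39.8 and 53.4 in F+, 50.2 to 55.7 in F- and 51.7 to 61.8 in sham-operated hearts, and its log2 fold change of -0.19 was the lowest of the 52 between F+ and F- (unadjusted p = 0.137). Cxcl14, a chemokine of epithelia and stroma, was lower in F- than in sham-operated hearts, with 27.7, 26.3 and 26.6 in F- against 28.1, 29.5 and 29.4 in sham-operated hearts (log2 fold change -0.11, unadjusted p = 0.0213), and had 27.2, 28.1 and 29.4 in F+. Ccl25, a chemokine of thymus and gut, had 17.5, 20.8 and 18.2 in F- against 20.7, 22.7 and 20.8 in sham-operated hearts (log2 fold change -0.19, unadjusted p = 0.0301), and had 20.6, 21.6 and 19.8 in F+. Its receptor Ccr9 had 14.4 to 15.9 over all 9 arrays. Cxcl17, a mucosal chemokine, had 32.7, 31.2 and 32.6 in F+ and 31.9, 33.0 and 32.6 in F-, against 35.2, 33.0 and 34.0 in sham-operated hearts, with a log2 fold change of -0.083 between F+ and sham-operated hearts (unadjusted p = 0.0396). Ccl17, Ccl20, Ccl22, Ccl27, Ccl28, Ccr4, Ccr6, Ccr10 and Cxcr5 had log2 fold changes between -0.084 (Ccl27) and 0.10 (Ccl20) between F+ and F-, all with overlapping groups.

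Between F- and sham-operated hearts, the comparison of overload with a fibrotic area below the cut-off, fewer genes were on the higher side and more on the lower side. An unadjusted p under 0.05 was found for 2 genes with a higher value in F- (Cxcl9 and Cxcr4; 3.85% of the genes, with 3.07% of all features and 2.81% of genes) and for 4 with a lower one (Ccl24, Ccl25, Ccl26 and Cxcl14; 7.69%, with 2.96% of all features and 2.77% of genes). All F- arrays lay above all sham arrays for 1 gene (5.15% of features, 5.1% of genes) and below them for 6 (4.64% of features, 4.73% of genes): Ccl19, Ccl24, Ccl26, Cxcl12, Cxcl14 and Ccr10, a receptor of skin-homing T cells. The median log2 fold change was -0.039 for ligands and -0.035 for receptors, and -0.0025 over all features. With 1 array left out, the median of the ligands ran between -0.058 (without sham array 2) and -0.014 (without sham array 1), and that of the receptors between -0.043 and 0.00054 (without F- array 1). A log2 fold change above 0 was found for 18 of the 52 genes (34.6%), against 48.2% of features.

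Between F+ and sham-operated hearts, 9 genes (17.3%) had an unadjusted p under 0.05 and a higher value in F+, where 3.5% of all features and 4.41% of genes did. They were Ccl2, Ccl19, Cxcl12, Cxcl16, Cx3cl1, Ccr1, Cxcr4, Cx3cr1 and Ackr2. Cxcl17 alone was on the lower side, where 3.9% of all features and 4.16% of genes were. All F+ arrays lay above all sham arrays for 10 genes (5.69% of features, 7.65% of genes) and below them for 2, Cxcl17 and Ackr3 (6.56% of features, 7.46% of genes). This comparison shares the F+ arrays with that of F+ against F-, so the genes common to both lists are no independent repeat. The median log2 fold change was 0.013 for ligands and -0.016 for receptors, against -0.0035 over all features. With 1 array left out, the median of the ligands ran between -0.0067 (without sham array 2) and 0.073 (without sham array 1), and that of the receptors between -0.055 and 0.0092 without the same arrays. Of the 52 genes, 27 (51.9%) had a log2 fold change above 0, against 47.5% of features and 48.9% of genes. Without sham array 2, which held the atrial signal, 6 genes were higher in F+ than in sham-operated hearts with an unadjusted p under 0.05.

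Ccl19, Ccl24, Cxcl12, Cx3cl1, Ccr1 and Ackr2, which are 6 of the 10 genes, held an unadjusted p under 0.05 between F+ and F- under all 15 alternatives that were run. Ccl21 did so under 13, Cxcl16 under 12 and Cx3cr1 under 9, and Ccl26 under 10 of the 14 that kept it, since 1 left out the dimmest features. Arrays without which these genes had an unadjusted p of 0.05 or more were F+ array 2 and F- array 2 for Ccl21, these and F- array 3 for Cxcl16, any F+ array or F- array 3 for Ccl26, and any array but F- array 1 for Cx3cr1. Without F+ array 2, the 6 named first were those that remained higher in F+ with an unadjusted p under 0.05.

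Many chemokine genes lie in clusters. By RefSeq coordinates on GRCr8, 33 of the 52 genes lay in 9 groups in which the start of each gene was within 300000 bases of the next. Ccl24 and Ccl26, next to each other on chromosome 12 (26737423 to 26750924), were the only group of which every gene had an unadjusted p under 0.05 between F+ and F-. On chromosome 5 (61737261 to 61777515), Ccl19 and Ccl21 were higher in F+ with an unadjusted p under 0.05, while their neighbour Ccl27, a chemokine of the skin, had 35.9, 36.0 and 33.1 in F+, 35.3, 36.1 and 40.0 in F- and 36.0 on each sham array. On chromosome 19 (10208120 to 10270359), Cx3cl1 lies between Ccl17 and Ccl22, ligands of Ccr4, whose log2 fold changes were -0.0078 and 0.043 against 0.18 for Cx3cl1. In the receptor group on chromosome 8 (132273581 to 132619106), sides were taken by an unadjusted p under 0.05. Ccr1 was on the higher side, Xcr1 on the lower side, and Ccr2, Ccr3, Ccr9, Ccr1l1 and Cxcr6 on neither. On chromosome 10, the monocyte ligands Ccl2, Ccl7 and Ccl12 and the eotaxin Ccl11 form a group with 3 of 4 log2 fold changes above 0, Ccl11 being below, and the interferon-inducible ligands on chromosome 14 had 0 of 3.

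**Figure D5:**
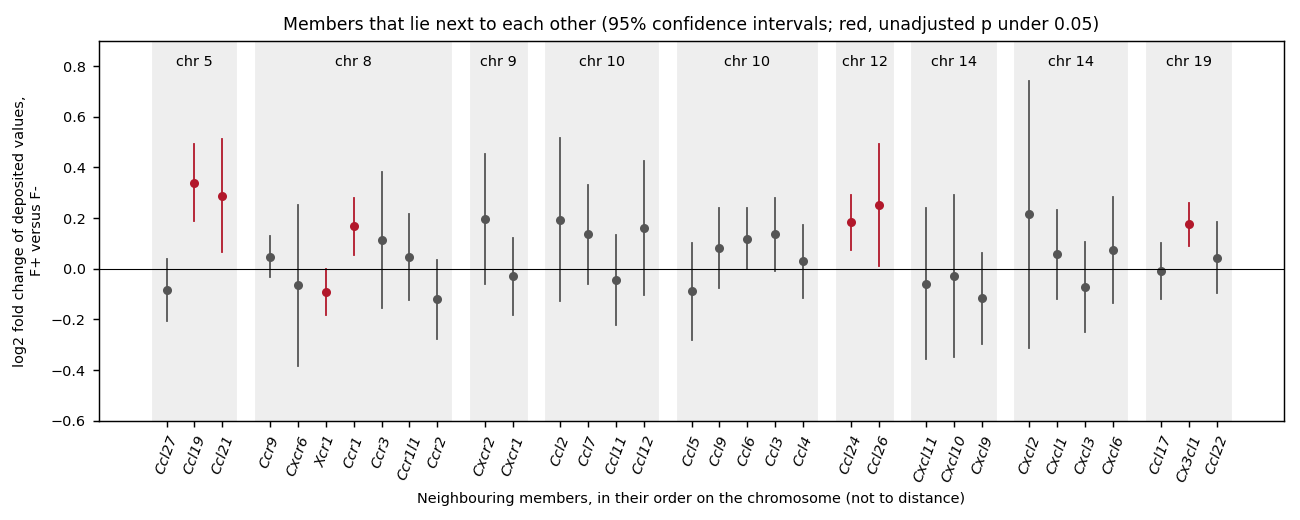
Log2 fold change of the deposited values in F+ against F- hearts, with 95% confidence intervals, for genes of each group of neighbours in the order of their starts, with an unadjusted p under 0.05 in red. Ccl24 and Ccl26 are both on the higher side, while Cx3cl1 stands between Ccl17 and Ccl22, which are near 0.

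Genes around the chemokines were counted from lists of their partners. Of 14 leukocyte adhesion genes measured of 15, 13 were higher in F+ than in F-, 8 with an unadjusted p under 0.05 and 0 with an adjusted one, at a median log2 fold change of 0.14. As above, 48.2% of all features were higher and 3.65% were so with an unadjusted p under 0.05. Vcam1, an endothelial adhesion molecule for monocytes and lymphocytes, had 44.2, 46.8 and 41.9 in F+, 36.4, 36.4 and 35.7 in F- and 37.9, 38.6 and 35.8 in sham-operated hearts (log2 fold change 0.29 between F+ and F-, unadjusted p = 0.000247, adjusted p = 0.402 from limma). Selplg, the leukocyte ligand of selectins, had 88.7, 77.9 and 72.2 in F+, 66.7, 55.6 and 51.9 in F- and 62.4, 56.8 and 55.0 in sham-operated hearts (log2 fold change 0.46, unadjusted p = 0.00318). For both genes every F+ array lay above the 6 others. Sele, the endothelial selectin, had a log2 fold change of 0.24 (unadjusted p = 0.0273). Between F- and sham-operated hearts, 5 of the 14 adhesion genes were higher and 0 had an unadjusted p under 0.05.

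Of 21 genes of chemokine receptor signalling measured of 25, 19 were higher in F+ than in F-, 4 with an unadjusted p under 0.05, but the median log2 fold change was only 0.045. For this list and for the inducers, processing genes and platelet chemokines, the shares over all features were again 48.2% higher and 3.65% higher with an unadjusted p under 0.05. Grk5, a kinase that desensitizes such receptors and is abundant in heart muscle, had 68.1, 71.0 and 67.0 in F+, 63.0, 57.0 and 56.5 in F- and 62.7, 60.4 and 59.9 in sham-operated hearts (log2 fold change 0.23, unadjusted p = 0.00156). Gnai2, an inhibitory G protein subunit through which chemokine receptors signal, had 123.6 to 124.4 in F+, 115.1 to 120.5 in F- and 115.5 to 118.2 in sham-operated hearts. Among 22 inducers of chemokines measured of 25, 19 were higher, 3 with an unadjusted p under 0.05. The ligands themselves did not lead this list: Tnf had 28.0 to 28.6 in F+ and 25.6 to 28.3 in F-, and Il1b had 31.5 to 35.8 in F+ and 30.8 to 35.2 in F-. Il1r1, the receptor for interleukin 1, had 65.2, 69.3 and 68.3 in F+, 59.9, 59.4 and 55.5 in F- and 59.1, 58.8 and 56.2 in sham-operated hearts (log2 fold change 0.21, unadjusted p = 0.000837). Of 6 genes of chemokine processing measured of 7, 4 were higher in F+ than in F-. With an unadjusted p under 0.05, 1 was higher and 1 lower, beside 3.76% of all features lower. The higher one was Mmp14 (log2 fold change 0.086, unadjusted p = 0.0366). Dpp4, a peptidase that trims Cxcl12 and other chemokines, was the lower one, with 42.0, 43.6 and 48.4 in F+, 50.9, 51.2 and 50.6 in F- and 48.9, 47.7 and 52.1 in sham-operated hearts (log2 fold change -0.19, unadjusted p = 0.00926). Adam17, which sheds Cx3cl1, had 71.0 to 75.4 in F+, 67.9 to 71.9 in F- and 64.2 to 69.1 in sham-operated hearts. Of 8 platelet chemokines and chemokine-like proteins, 6 were higher in F+ than in F- and 3 had an unadjusted p under 0.05, among them Pf4, platelet factor 4, with 38.7 to 39.9 in F+, 33.5 to 37.6 in F- and 36.8 to 40.2 in sham-operated hearts. Ccrl2, which presents chemerin without signalling, had 40.8 to 41.6 in F+ and 41.7 on each F- array.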

How the data were processed

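The 9 Affymetrix Rat Gene 1.0 ST arrays of right ventricles were grouped by their titles, 3 each as F+, F- and sham-operated. The authors deposited 1 normalized signal intensity per feature and array. For software, build, normalization and scale, details are not given in the sources used here. RNA and labelling differ between the methods, which name TRIzol and sense-strand cDNA, and the sample records, which name Sepasol and cRNA. No column was left out.

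Symbols came from the platform annotation (323 features carry several symbols and 13582 are not listed), and all 52 genes matched RefSeq GRCr8 by gene ID with 0 changed symbols. Group means of the log2 deposited intensities were estimated jointly over all 9 arrays by lmFit and eBayes of limma 3.58.1 (R 4.3.3, with the package data.table, version 1.17.8), with Benjamini-Hochberg adjustment over 29215 features and a threshold of 0.05. Promoters and plots were handled with Python 3.11.15, pandas 2.3.3 and matplotlib 3.10.9. The procedure was tested on simulated data, where recovery was required only for changes larger than any of the 52 genes showed. That test therefore does not bear on differences of their size.

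The genes, the 19 lists of other genes and the rules were chosen with earlier results of these data known. Values per array are given for genes with an unadjusted p under 0.05 in any comparison, for genes whose F+ and F- arrays do not overlap, for the 5 brightest ligands and receptors and for partners of these, and up to 4 genes are named per other list; Prox1, Cd3d, Csf1r, Tnf, Il1b, Adam17 and Ccrl2 were added for their roles. Alternatives were other normalizations, filters and fits, square roots, and each array left out. The number of arrays limits the precision.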

Additional observations from a re-analysis of the deposited data

How the results depend on the processing

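The groups share replicate numbers. The deviations of same-numbered arrays correlated by -0.21 to 0.053 and those of other arrays by -0.12 to 0.26, so no pairing by number was seen. With only 3 arrays in a group, these correlations cannot exclude a pairing. Genes counted below as higher or lower had an unadjusted p under 0.05, and features that passed had an adjusted p under 0.05. The shares over all features were given above for the main fit alone. With the replicate number as a block, 13 genes were higher in F+ than in F- (10 without it, the added ones being Ccl12, Ccl25 and Cxcr2), 10 were higher in F+ than in sham-operated hearts (9 without it), 0 were lower there (1 without it), and 0 of all features passed between F+ and F- (1 without it). Features passing between F+ and F- numbered 3 without the dimmest 33.3% of features, 3 with only features of 1 symbol, 0 with only the 2 groups compared, 3 with a trend and robust priors, 3 without F- array 1 and sham array 2 together, a setting chosen after seeing the data, and 0 to 3 when each array was left out. Between F+ and sham-operated hearts, 1 feature passed with only the 2 groups and 1 without those 2 arrays. Chemokine and receptor genes lower in F+ than in F- numbered 0 with only the 2 groups, 2 without those 2 arrays and 0 to 2 when each array was left out, and those higher 6 to 13. Between F- and sham-operated hearts, the lower genes numbered 2 without the dimmest 33.3% of features, 2 with only the 2 groups and 1 to 4 with an array left out, the higher ones 0 without those 2 arrays and 0 to 4 with an array left out, and the median of receptors was 0.0088 without the dimmest 33.3% of features. Between F+ and sham-operated hearts, the lower genes numbered 0 with only the 2 groups and 0 to 4 with an array left out, the higher ones 6 to 11, and the median of ligands was -0.0067 to 0.073, the highest without sham array 1. The cause of these shifts was not tested. Directions were followed for Ccl6 between F+ and F- and for the genes with an unadjusted p under 0.05 in the comparison where they had it, and none of these was reversed. Subtracting 10 before log2 was not run, since values reach down to 1.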
